A study of Rattus norvegicus with 4 samples.

Results

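The genes described here encode the subunits and assembly factors of respiratory complex I, the NADH dehydrogenase of the inner mitochondrial membrane. They were taken as all genes whose symbol begins with Nduf and which have a probe set annotated to no other gene. This gave 42 of the 14217 genes on the array, read by 46 probe sets, and they divided by symbol into 36 subunits and 6 assembly factors. Expression was measured in the soleus, a slow hindlimb muscle rich in mitochondria, of male Wistar rats that were 10 weeks old at the start of the diets. The control group ate a modified AIN-93G diet, a purified rodent diet, with corn oil in place of soybean oil. The genistein group ate an AIN-93G diet with 0.5 g of genistein, a soy isoflavone, per kg (0.05%), and feeding lasted 24 days. The left sciatic nerve was excised on day 14, the right leg had a sham operation in the same session, and soleus was collected 10 days after surgery, at a labelled age of 14 weeks. Each of the 4 groups, sham and denervated muscle of either diet, is a pool of 8 rats hybridised to 1 array.

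Each group is therefore 1 pool on 1 array, without replicates, so no test was possible and no value has an error of its own. Within a diet, sham and denervated muscle are the right and left legs of the same animals, so diet and the particular set of 8 rats cannot be told apart. Groups were taken from the sample titles, because the treatment field of the control diet denervated and the genistein diet sham samples contradicts their titles. The 4 receptor and myogenic genes used as a check of nerve loss (Chrna1, Chrng, Chrnd and Myog) were at least 2-fold higher on the arrays titled denervated in both diets. Between 58.5% and 60.8% of probe sets on each array read above a floor of 78.9 units, the 40th percentile of all signals, to which lower signals were raised. For actin, the signal at the 3′ end over that at the 5′ end, which grows as RNA degrades, was 2.08 (control) and 2.32 (genistein) with the nerve intact, against 3.79 and 2.76 after denervation. The same ratio for Gapdh went the other way, at 1.24 and 1.20 in sham and 1.14 and 1.13 in denervated muscle, and the part of RNA quality in the results was not tested. Probe sets of the same gene scattered around their mean log2 ratio with an SD of 0.35 and 0.36 for denervation on the control and genistein diets, and of 0.26 and 0.25 for diet in sham and denervated muscle. This scatter arises within the arrays and holds no variation between animals or pools, so no difference between pools can be judged by it.

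Complex I takes electrons from NADH, passes them through a flavin and a chain of iron-sulfur clusters to ubiquinone, and uses the energy to pump protons out of the matrix. It has the shape of an L. The peripheral arm in the matrix holds the N module, which oxidises NADH, and the Q module, which reduces ubiquinone. The membrane arm, with a proximal and a distal part, pumps protons. A small set of core subunits does the catalysis, some encoded in the nucleus and the others, which lie in the membrane, in mitochondrial DNA. The many accessory subunits surround and stabilise the core, and assembly factors help to build the complex without staying in it. Slow muscle fibres depend on this machinery for sustained work.

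Sequence motifs were searched around the transcription start sites of these genes. RefSeq promoter windows of the GRCr8 rat assembly, from 250 bases before to 50 after the annotated start, were found for 40 of the 42 genes. Of these, 12 (30%) held AANATGGCG, a motif of the factor YY1 (all motifs were searched on both strands), against 3.01% of all 33469 promoter windows of the same length and 5.34% of the windows of genes on the array. In addition, 10 (25%) held GCGCANGCG, a motif of nuclear respiratory factor NRF1, against 5.80% and 11.2%. AAGGTCA, the half-site of the oestrogen-related receptors, was found in 3 (7.50%) against 4.61% and 3.14%, and CCGGAAGT, the motif of GABP, also in 3, against 3.81% and 6.84%. Matches to the NRF1 motif on opposite strands can overlap. The YY1 motif contains the letters ATG, and whether these are the start codon was not examined. Stretches are printed to show where both commoner motifs lie, in genes with lower signals after denervation and in Ndufs4, the exception among the subunits. Capitals mark a match to one of the motifs searched, and each sequence is given 5′ to 3′ on the strand of the gene. Those of Ndufa11 (chr9:1637504-1637543, plus strand), Ndufa5 (chr4:53971246-53971285, minus strand) and Ndufa12 (chr7:30658191-30658230, plus strand) lie before the start site and hold the NRF1 motif. In Ndufs1 (chr9:72073621-72073650, minus strand) the YY1 motif lies before the start on the opposite strand. In Ndufs7 (chr7:10110475-10110504), Ndufs4 (chr2:47794891-47794920), Ndufa9 (chr4:161374141-161374170) and Ndufb8 (chr1:253362898-253362927), all on the minus strand of the chromosome, it lies just after the start.
Ndufa11: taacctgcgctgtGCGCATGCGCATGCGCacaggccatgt
Ndufa5: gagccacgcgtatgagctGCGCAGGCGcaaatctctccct
Ndufa12: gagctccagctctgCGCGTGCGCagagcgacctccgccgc
Ndufs1: ggagttagccgtggcCGCCATATTgactta
Ndufs7: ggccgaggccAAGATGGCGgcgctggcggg
Ndufs4: tgcccacaggAAGATGGCGgcggtctcaat
Ndufa9: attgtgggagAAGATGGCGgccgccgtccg
Ndufb8: tcggagaaggtgAAGATGGCGgcgtcccgg

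The first comparison asks what loss of the nerve did to complex I mRNA in each diet. In denervated soleus, 35 of 36 measured subunits were lower than in sham muscle on the control diet and 34 of 35 on genistein, and Ndufs4 was the exception in both. The median log2 ratio of the subunits was -1.09 on the control diet and -1.21 on genistein, so the median subunit stood at 46.8% and 43.1% of its sham signal. In pooled tissue, fewer fibres and less complex I mRNA per fibre cannot be told apart. The median over all genes measured was -0.00 on the control diet and 0.02 on genistein. By 2-fold or more, 21 of 36 subunits were lower on the control diet, where 7.63% of all 10755 genes were, and 24 of 35 on genistein, where 6.57% of 10810 genes were. No subunit was 2-fold higher in either diet, against 5.04% and 4.96% of all genes. Both sham arrays read above both denervated arrays for 34 subunits and for all 6 assembly factors, an order found in 33.5% of all genes measured in both diets. The directions of the subunits held with the arrays scaled to their medians, to equal quantiles or to the hybridisation controls. With median scaling the subunit medians were -1.01 and -1.24, and with quantile normalization -0.75 and -0.86. With the hybridisation controls as the reference, the subunit medians were -0.72 and -0.70, while the median of all genes moved to 0.36 and 0.51.

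**Figure D1:**
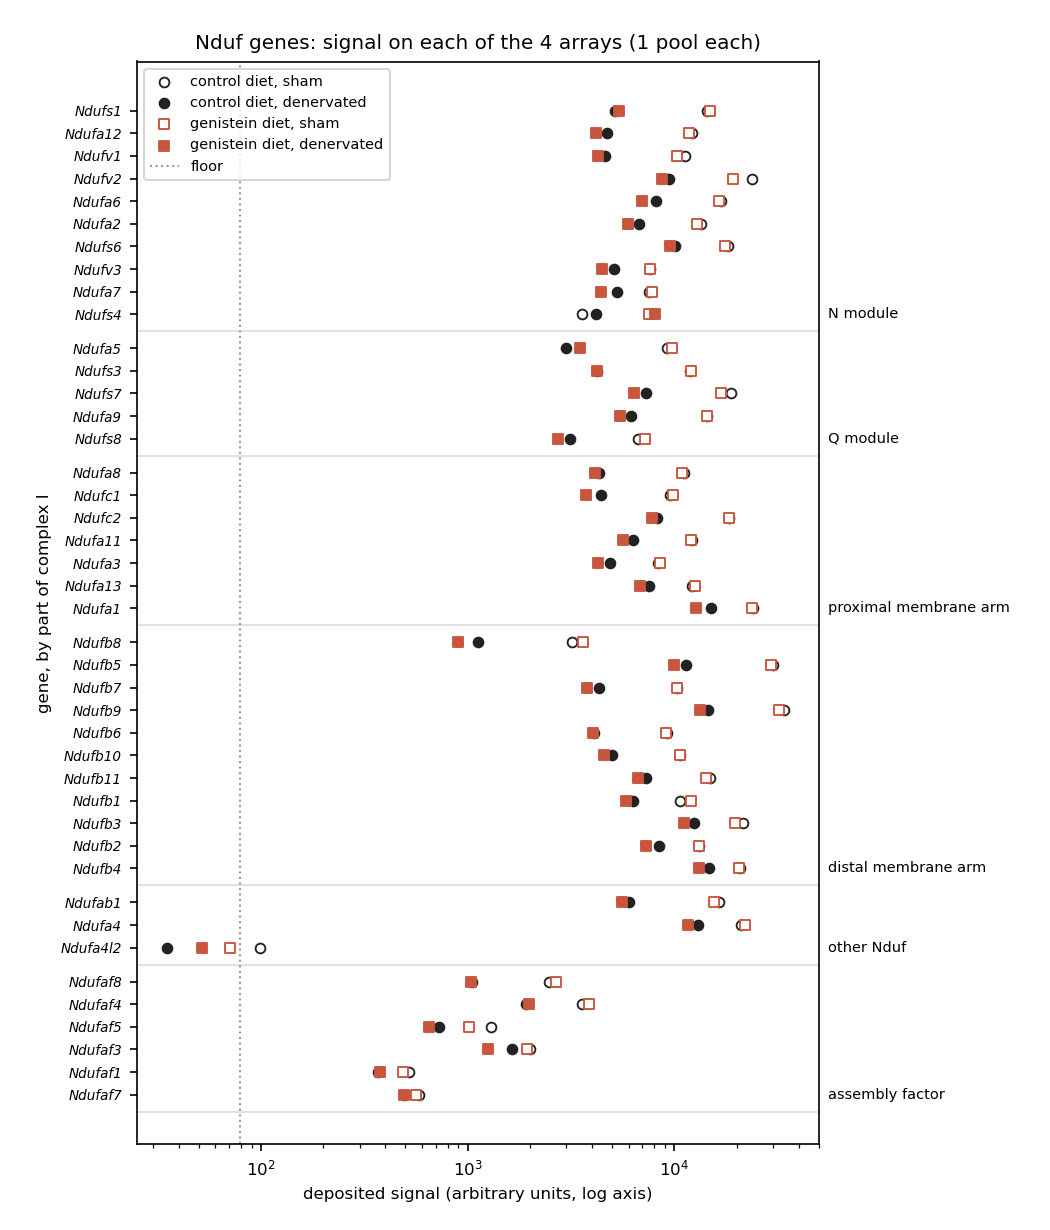
Deposited signal of each of the 42 Nduf genes on the 4 arrays (log axis, arbitrary units), in rows grouped by part of complex I. Open symbols are sham and filled symbols denervated muscle, circles the control and squares the genistein diet, and each point is 1 pool of 8 rats. Both sham points lie to the right of both denervated points in all rows except that of Ndufs4, whose points separate by diet, and Ndufa4l2 is below the floor of 78.9 units (dotted line) on 3 arrays.

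The nuclear core subunits carry the flavin and the iron-sulfur clusters or shape the quinone site. In the deposited signals 6 of 6 were at least 2-fold lower in both diets, against 4.93% of all 10414 genes measured in both. The core medians were -1.35 and -1.40. These are 6 of the 7 listed nuclear core subunits, and the mitochondrially encoded ones were not analysed here. With the hybridisation controls as the reference none of the 6 passed 2-fold on genistein, where Ndufs3 was the lowest at -0.99. With quantile normalization Ndufv2 (-0.91 and -0.72) and, on the control diet, Ndufs8 (-0.99) fell short of 2-fold. Ndufs1, the large iron-sulfur subunit of the N module, read 14292 units in control sham, 5167 in control denervated, 14826 in genistein sham and 5420 in genistein denervated muscle. Its log2 ratios were -1.47 and -1.45. Ndufs3, which helps to form the base of the Q module, read 11839, 4199, 11963 and 4222 units in the same order, giving -1.50 and -1.50. In both genes the sham and denervated pools were far apart, while pools of the same operation read alike on both diets.

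Ndufv1, the subunit that binds NADH and the flavin, read 11298, 4628, 10279 and 4251 units in control sham, control denervated, genistein sham and genistein denervated muscle, for log2 ratios of -1.29 and -1.27. Its partner Ndufv2, an iron-sulfur protein of the N module, read 23598, 9365, 19286 and 8698 units in that order (-1.33 and -1.15). Its diet ratio in sham muscle was -0.29. Ndufs7 and Ndufs8, which carry the last iron-sulfur clusters before ubiquinone, differed in how alike the diets were. Ndufs7 read 18700, 7278, 16806 and 6343 units (-1.36 and -1.41). Ndufs8 read 6640, 3108, 7225 and 2745 units (-1.10 and -1.40). Its genistein sham pool read above and its genistein denervated pool below the matching control pool.

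Around the core, the accessory subunits varied more, with an SD across genes of 0.39 in both diets against 0.14 and 0.13 for the core. Of 28 accessory subunits, 15 passed a 2-fold decrease on the control diet and 18 on genistein, and the medians were -1.04 and -1.14. By position, the Q module had the lowest medians, -1.36 and -1.41 over 5 genes, and all 5 passed 2-fold in both diets in the deposited signals. The N module had medians of -1.03 and -1.13 over 10 genes. The proximal membrane arm had -0.95 and -1.09 over 7 genes, with 3 and 4 past 2-fold, and the distal membrane arm -1.09 and -1.17 over 11 genes, with 7 and 8 past 2-fold. The peripheral arm as a whole (15 genes) had medians of -1.22 and -1.27 and the membrane arm (18 genes) -1.06 and -1.13. The ranges of these parts overlapped in both diets, and their order could not be tested.

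The 5 lowest mean ratios over both diets came from both arms. Ndufb8, a membrane subunit whose protein is widely used as a marker of assembled complex I, read 3209 units in control sham, 1123 in control denervated, 3619 in genistein sham and 899 in genistein denervated muscle. Its ratios were -1.51 and -2.01, so denervated muscle held 35.0% of the sham signal on the control diet and 24.8% on genistein. Ndufa5, an accessory subunit of the Q module, read 9163, 2985, 9763 and 3507 units (-1.62 and -1.48), and its denervated value was the higher one on genistein. Ndufb5, of the distal arm, read 29903, 11362, 29301 and 9977 units (-1.40 and -1.55). The other members of this group were Ndufs3, given above, and Ndufab1. Ndufab1 is the mitochondrial acyl carrier protein, which serves fatty acid and lipoic acid synthesis as well as being a subunit of both arms, and it read 16392, 6000, 15569 and 5597 units (-1.45 and -1.48). In all 5 genes both sham pools read far above both denervated pools.

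The remaining subunits at least 2-fold lower in both diets were Ndufa12, Ndufa8, Ndufa9, Ndufa6, Ndufb6, Ndufb7, Ndufb9, Ndufb10, Ndufb11, Ndufc1 and Ndufc2. Their ratios lay between -1.37 (Ndufa8) and -1.03 (Ndufb11) on the control diet and between -1.50 (Ndufa12) and -1.09 (Ndufb11) on genistein. Together with the genes above they made 21 of the 35 subunits measured past 2-fold in both diets. This count is of the deposited signals, in which 4.93% of all 10414 genes measured in both diets did so. Another 3 passed it on genistein alone, each within 0.30 log2 units of its value on the control diet. They were Ndufa2 (-0.996 and -1.11), which on the control diet kept 50.2% of its sham signal and so just missed the threshold, Ndufa11 (-0.95 and -1.09) and Ndufb1 (-0.75 and -1.05).

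A milder group stayed short of 2-fold in both diets. Ndufa1, an essential small membrane subunit encoded on the X chromosome, had ratios of -0.68 and -0.89. Ndufa13, also known as GRIM-19 for its role in cell death, had -0.69 and -0.89, and Ndufs6, a zinc-binding subunit needed late in assembly of the N module, -0.86 and -0.88. Ndufa3 (-0.78 and -0.9998, just short of the threshold on genistein), Ndufb3 (-0.79 and -0.82) and Ndufb2 (-0.63 and -0.85) were alike. Ndufa7 read 7550, 5276, 7812 and 4421 units in control sham, control denervated, genistein sham and genistein denervated muscle (-0.52 and -0.82). Ndufb4 read 20648, 14685, 20442 and 13122 units (-0.49 and -0.64), so in the deposited signals it kept 71.1% and 64.2% of its sham signal. Its ratios were closer to 0 with quantile normalization (-0.06 and -0.15) and with the hybridisation controls as the reference (-0.11 and -0.13). In the deposited signals the genes of this milder group were still ordered with both sham pools above both denervated pools.

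Not every gene in the family belongs to complex I in its present definition. Ndufa4, first named as a complex I subunit and now counted with cytochrome c oxidase, read 21077, 13019, 21855 and 11593 units (-0.69 and -0.91) and so stood with the milder group. Its relative Ndufa4l2, which is induced by hypoxia and lowers respiration, was barely detected. It read 99.1 units in control sham muscle and 35.0, 71.0 and 51.9 units on the other arrays, all below the floor. Its denervation ratio on the control diet, -0.33, is therefore only a bound. The other 41 genes were above the floor on all 4 arrays. Leaving both out changed the subunit medians to -1.11 and -1.22.

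**Figure D2:**
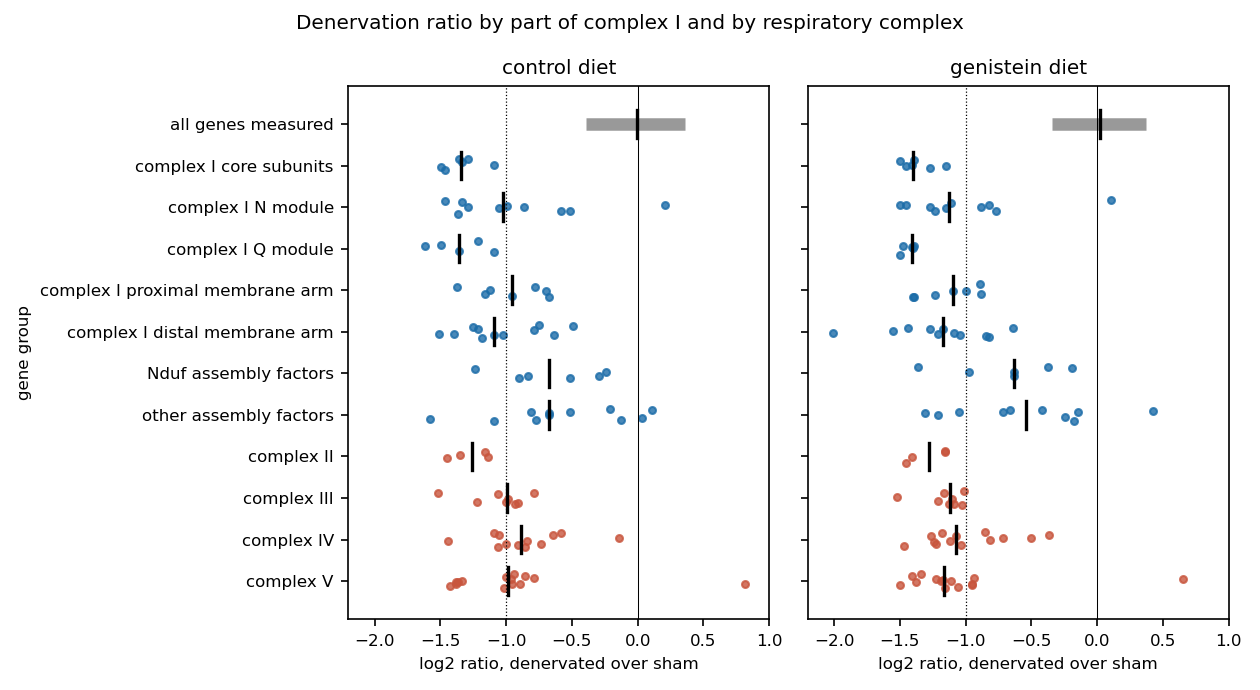
Log2 ratio of denervated over sham signal for the parts of complex I and for complexes II to V, on the control diet (left) and the genistein diet (right). Each point is 1 gene, the black bar the median of the group, the grey bar the range from the lower to the upper quartile of all genes measured, and the dotted line a 2-fold lower signal. The medians of the core, N, Q, proximal and distal groups lie between -1.41 and -0.95 (Ndufab1, Ndufa4 and Ndufa4l2 are not drawn), and those of the Nduf assembly factors at -0.68 and -0.63. The point to the right of 0 in the N module is Ndufs4 and the one in complex V is Atp5if1. Among the other assembly factors, Nubpl (0.11, control diet only) and Tmem186 (0.03 and 0.42) lie to the right of 0.

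In the deposited signals the assembly factors were lower by less than the subunits. All 6 were below their sham signal in both diets, with medians of -0.68 (control diet) and -0.63 (genistein), and 1 of 6, Ndufaf8, passed 2-fold. With the hybridisation controls as the reference 4 of 6 were below their sham signal in each diet and the medians were -0.30 and -0.12. With quantile normalization they were -0.74 and -0.71, against -0.75 and -0.86 for the subunits. The smaller decrease of the assembly factors on the control diet therefore depended on the scaling. Ndufaf8, needed for the assembly of the Q module, read 2462 units in control sham, 1046 in control denervated, 2660 in genistein sham and 1034 in genistein denervated muscle (-1.23 and -1.36), in the range of the subunits. Ndufaf4, which acts early in assembly with Ndufaf3, read 3573, 1907, 3872 and 1968 units (-0.91 and -0.98). Its partner Ndufaf3 read 2003, 1634, 1945 and 1252 units (-0.29 and -0.64). Of these partners, Ndufaf4 had the lower ratio in both diets.

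Ndufaf5, an enzyme that hydroxylates a core subunit during assembly, read 1300, 728, 1010 and 651 units in control sham, control denervated, genistein sham and genistein denervated muscle (-0.84 and -0.63). Ndufaf1, a chaperone of the early membrane arm, read 522, 366, 486 and 376 units (-0.51 and -0.37). Ndufaf7, a protein arginine methyltransferase, read 582, 492, 560 and 489 units (-0.24 and -0.19), the least lowered of the assembly factors. A second, dimmer Ndufaf7 probe set read 221, 166, 164 and 167 units (-0.42 and 0.03). On genistein the probe sets of Ndufaf7 thus differed in sign.

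Other assembly factors have symbols that do not begin with Nduf. Of 12 listed, 11 were on the array, and their medians were -0.67 over 11 measured genes on the control diet and -0.54 over 10 on genistein. At least 2-fold lower were 2 and 3 of them, against 7.63% and 6.57% of all genes. Acad9, an acyl-CoA dehydrogenase that assembles the proximal membrane arm, read 4723, 1578, 4309 and 1867 units in control sham, control denervated, genistein sham and genistein denervated muscle (-1.58 and -1.21). Ecsit, which works with Acad9 and Ndufaf1, had ratios of -1.09 and -1.31. Tmem186 had the highest ratio of the listed factors on genistein, 0.42, and 0.03 on the control diet. Nubpl, which delivers iron-sulfur clusters, had 0.11 and -0.17. Timmdc1 (-0.12 and -0.15) and Tmem126b (-0.21 and -0.24), members of the same assembly complex as Acad9 and Ecsit, lay near their sham signals. Members of 1 assembly complex therefore did not share a ratio.

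Ndufs4 stood apart from every other subunit. It encodes an accessory subunit of the N module whose loss in humans and mice causes Leigh syndrome, a mitochondrial encephalopathy. Its signal was 3587 units in control sham, 4150 in control denervated, 7518 in genistein sham and 8076 in genistein denervated muscle. Both genistein pools were above both control diet pools, and within each diet the denervated pool was slightly above the sham pool. The denervation ratios were 0.21 and 0.10, and 0.59 and 0.62 with the hybridisation controls as the reference. The diet ratios were 1.07 in sham muscle (2.10-fold) and 0.96 in denervated muscle (1.95-fold), while the other subunits reached at most 0.18 in sham and 0.23 in denervated muscle. Past 2-fold higher with genistein were 0.324% of 10819 genes in sham and 1.02% of 10479 in denervated muscle. Ndufs4 was the only subunit with both genistein arrays above both control diet arrays, an order found in 9.21% of genes. Its diet ratio in denervated muscle ranged from 0.83 with median scaling to 1.19 with quantile normalization.

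Few genes had a diet ratio of this size with the nerve intact and again after its excision. Among 10147 genes measured in both, 5 had ratios at least as high as the 0.96 of Ndufs4 in both muscles, and the other 4, Ccdc68, Cish, Fmo2 and Myo1f, named here after their values were seen, did not exceed 324 units on any array. The value of Ndufs4 comes from 1 probe set, so no other probe set checks it, and RefSeq lists 1 pseudogene or copy named after the gene. In the RefSeq gene order the next gene on one side, Arl15, had diet ratios of -0.41 and 0.10, and the next on the other side, the activin antagonist Fst, -0.06 and -0.21. Further out, Mocs2 had 0.37 and -0.09, Itga1, an integrin subunit, 0.10 and 0.76, and Pelo -0.20 and -0.08. Beyond Arl15, Hspb3 had 0.15 and 0.13, Snx18 0.12 and -0.004, and Esm1 0.26 and 0.22. Both pools of a diet hold the same rats, so the repeat of the difference in denervated muscle is not a repeat in other animals.

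**Figure D3:**
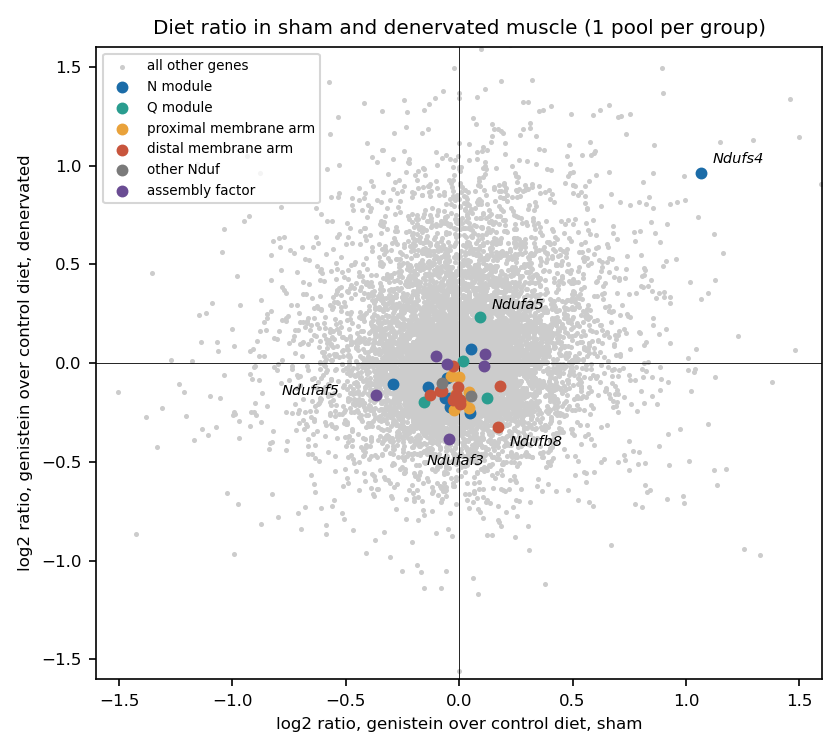
Log2 ratio of genistein over control diet signal in sham muscle (horizontal) and denervated muscle (vertical), with 1 pool per group. Coloured points are Nduf genes by part of complex I and grey points the other genes, of which those beyond the axes are not drawn. Ndufs4 lies at 1.07 and 0.96. The other subunits drawn lie between -0.29 and 0.18 in sham muscle and between -0.32 and 0.23 in denervated muscle. Ndufa4l2, at -0.33 in sham muscle, has no ratio in denervated muscle and is not drawn.

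Apart from Ndufs4, diet ratios in sham muscle were small. The median diet ratio of the 36 subunits was -0.01 there, with 21 below 0, while 49.5% of all genes were below 0. Of the subunits, 34 were within 0.3 log2 units of 0. Ratios over all genes were small as well, with a median of 0.002 and quartiles of -0.14 and 0.16. None of the subunits was 2-fold lower, against 0.287% of all genes. With quantile normalization 7 of 36 were below 0 and the median was 0.06, so the direction depended on the scaling. Among the assembly factors, whose median was -0.05, Ndufaf5 had the lowest ratio (-0.37, from 1300 to 1010 units) and Ndufaf4 the highest (0.12).

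In denervated muscle most members read a little lower on genistein. The median diet ratio of the 35 measured subunits was -0.16, with 31 below 0, while 49.9% of all genes were below 0. None was 2-fold lower, where 0.124% of all genes were. The lowest subunit was Ndufb8 at -0.32 (1123 against 899 units with genistein), and the lowest assembly factor Ndufaf3 at -0.38 (1634 and 1252 units). The highest after Ndufs4 was Ndufa5 at 0.23 (2985 and 3507 units). All 18 subunits of the membrane arm were below 0, with Ndufb6 the closest to it at -0.01. The median stayed below 0 under every scaling, at -0.30 with median scaling, -0.08 with quantile normalization and -0.04 with the hybridisation controls, with which 24 of 35 were below 0.

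Markers of the cell types in muscle also differed between the pools. Beside the lower members, the denervated genistein pool had lower signals for muscle fibre markers than the denervated control pool, 6 of 6, with summed signals of 159124 (control diet) and 129090 units (genistein). It had higher signals for 8 of 8 matrix and fibroblast markers (24053 and 40807 units), 7 of 7 endothelial markers (2133 and 3189), 7 of 7 measured macrophage and leukocyte markers (6572 and 10357) and 5 of 5 measured adipocyte markers (3949 and 6401), with Lep below the floor on all arrays. Of the Schwann cell markers 3 of 3 measured were higher (3314 and 4408), with Sox10 below the floor on all arrays. Fibre markers were lower on genistein in sham muscle too, 6 of 6, where the median diet ratio of the subunits was -0.01. The median diet ratio of the fibre markers was -0.20 in sham and -0.33 in denervated muscle. Denervated muscle itself had lower signals than sham muscle for 6 of 6 fibre markers in both diets, with medians of -0.51 and -0.56 and sham and denervated sums of 224477 and 159124 units for the control diet and 191838 and 129090 for genistein. On the control diet matrix, endothelial and macrophage markers were also lower after denervation. They were so in 8 of 8 (median -1.33), 7 of 7 (-1.05) and 7 of 7 measured cases (-0.76). On genistein these medians were -0.61 (6 of 8 lower), -0.45 (6 of 7) and -0.07 (5 of 8). Adipocyte markers had medians of -0.18 (3 of 4 lower) and 1.06 (1 of 5), and Schwann cell markers 0.02 (1 of 3) and 0.57 (0 of 3). The part of these differences in the values of complex I was not tested.

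The last comparison sets the denervation ratios of both diets side by side. Over the 41 Nduf genes measured in both, the ratios followed each other closely, with a Pearson correlation of 0.93 and a Spearman correlation of 0.95 across genes, given as a description because the genes share the same 4 arrays. Over all 10414 genes Pearson's r was 0.85. The ratio was lower on genistein for 33 of the 41, while it was so for 50.4% of all genes. The median difference of the subunits, genistein minus control diet, was -0.14, and it was -0.00 with the hybridisation controls, with which 18 of 35 were below 0. The median of the assembly factors was -0.01, and it took either sign under the other settings.

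The members with the largest differences were few. Ndufb8 had the lowest, -0.49, followed by Ndufaf3 at -0.34 and Ndufa7 at -0.30. The highest were Ndufaf5 at 0.20, Ndufv2 at 0.18 and Ndufaf1 at 0.14. These are the extremes of 41 genes from single pools, and no test of them was possible.

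**Figure D4:**
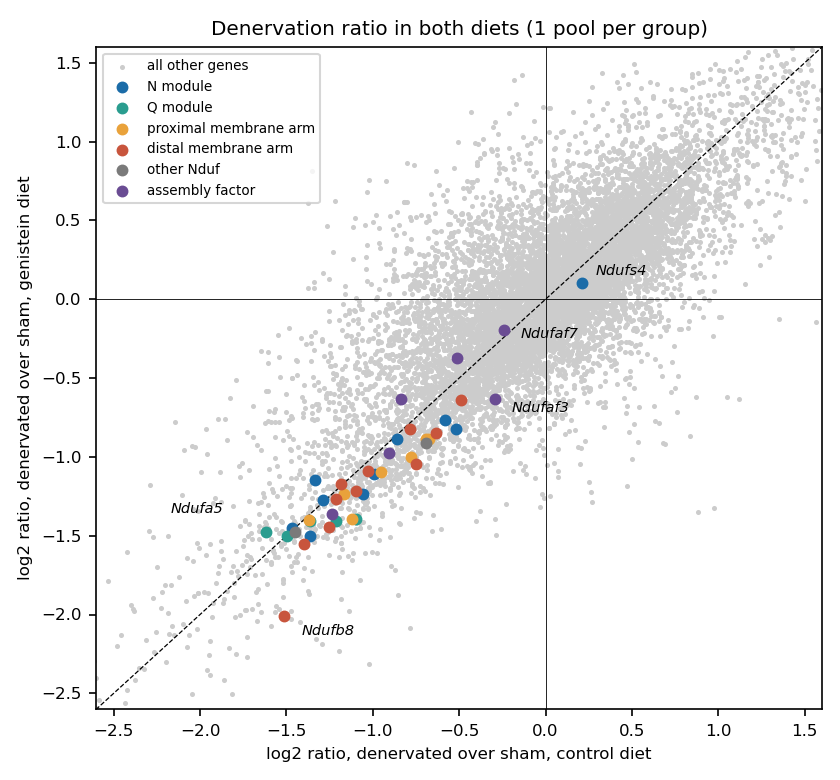
Log2 ratio of denervated over sham signal on the control diet (horizontal) and on the genistein diet (vertical), with 1 pool per group. Coloured points are Nduf genes by part of complex I, grey points are the other genes, of which those beyond the axes are not drawn, and the dashed line marks equal ratios. Of the 41 genes drawn in colour, 33 lie below the line, and Ndufb8, at -1.51 and -2.01, lies farthest below it.

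Only 4 members have a second probe set, and these mostly gave the same direction. Ndufa9, of the Q module, had ratios of -1.22 and -1.40 on its bright probe set and -1.14 and -1.0 on one that read 174, 74.2, 182 and 90.5 units in control sham, control denervated, genistein sham and genistein denervated muscle. The second of these is below the floor, so -1.14 is only a bound. The second probe set of Ndufa7 gave -0.10 and -0.56. Ndufv3, a small N module subunit, had the widest gap. Its bright probe set read 7634, 5106, 7626 and 4484 units in control sham, control denervated, genistein sham and genistein denervated muscle (-0.58 and -0.77). The other read 298, 75, 338 and 111 units, the second of these below the floor, with ratios of -1.92, a bound, and -1.61. The direction was the same for both probe sets, and the size was not.

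The other respiratory complexes serve as the nearest comparison. Of their listed genes 39 were on the array. On the control diet 19 of 38 measured were lower by 2-fold or more, and 30 of 39 on genistein, against 7.63% and 6.57% of all genes. Their medians were -1.0 and -1.15, against -1.09 and -1.21 for the subunits of complex I. Complex II, succinate dehydrogenase, had medians of -1.26 and -1.28 over 4 genes, complex III -0.99 and -1.12 over 8, complex IV -0.88 over 12 and -1.08 over 13, and complex V, the ATP synthase, -0.99 and -1.16 over 14. Complex V also held an exception, Atp5if1, the inhibitor that stops ATP synthase from running backwards, which read 3419, 6018, 3416 and 5381 units (0.82 and 0.66). The diet ratio in denervated muscle was -0.17 at the median of these genes, with 35 of 38 below 0, against -0.16 for the subunits of complex I.

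Of 12 listed regulators of mitochondrial genes, 4 were at least 2-fold lower in each diet, against 7.63% and 6.57% of all genes. They were Perm1, Ppargc1b, Esrra and Esrrg. The factors whose motifs were searched differed in direction. Yy1 read 2891 units in control sham, 3659 in control denervated, 2864 in genistein sham and 3563 in genistein denervated muscle (0.34 and 0.32). Nrf1 read 152, 174, 141 and 170 units (0.19 and 0.26), and Gabpa, the DNA-binding subunit of GABP, 1778, 2405, 1880 and 2721 units (0.44 and 0.53). Esrrg, an oestrogen-related receptor of oxidative muscle, was at 6999, 3287, 8071 and 3556 units (-1.09 and -1.18), and its relative Esrra had -1.40 and -1.71. The coactivator Ppargc1a had -0.57 and -0.78, short of 2-fold, and Ppargc1b -2.01 and -1.58. Perm1, a muscle partner of the oestrogen-related receptors, read 9243, 128, 9059 and 104 units in the same order (-6.17 and -6.44). Its denervated signals lay near the floor of 78.9 units. Members with the YY1 motif had median denervation ratios of -1.09 and -1.30 and those without it -0.93 and -1.09. Members with the NRF1 motif had -0.93 and -1.03 and those without it -1.06 and -1.15. The 3 members with the ERR half-site had -0.63 and -0.85, against -1.05 and -1.16 without it, and the 3 with the GABP motif -1.25 and -1.44, against -0.996 and -1.10. Ndufs4 itself holds the YY1 motif, and no test of these differences was possible.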

How the data were processed

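Per the labels' protocols, biotinylated RNA was made with an Affymetrix 3′ kit, and each group is a pool of 8 rats on 1 array. Values are the linear signal intensity that the authors deposited for each probe set, made with GCOS 1.1 per the submitters' processing notes, which name no scaling target. A genome build is not stated in the labels. With 2% of probe sets trimmed from either tail, each array's mean intensity was 500.2, so the deposited values were used without further normalization. Of 31042 non-control probe sets, 20826 had 1 gene in the platform annotation and 436 several. Where a gene had several probe sets, the one brightest on average (log2) was used. Signals below the 40th percentile (78.9 units) were raised to it before taking log2, and a gene counted as measured where at least 1 array compared was above it. With 1 array per group no test was run; counts use a fixed size of 2-fold.

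Values on all 4 arrays were given for core subunits, assembly factors, the 5 lowest and 5 highest denervation ratios, the 3 largest differences between diets in each direction, members with probe sets over 1 log2 unit apart, and Ndufa4, Ndufa4l2 and Ndufab1. The members and the gene lists were chosen with earlier results of these data known. All 42 symbols were found in the GRCr8 annotation, and promoter sequences are RefSeq's. The calculation of ratios and counts was checked on simulated arrays whose added effects lay well past 2-fold. That check does not show how reliable counts near 2-fold are. Python 3.11.15, numpy 2.4.6 and pandas 2.3.3 were used. In all, 9 other settings, and 2 more added after seeing the data, concern scaling, floor, probe set choice and membership. The number of arrays limits the precision.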

Additional observations from a re-analysis of the deposited data

Results flagged for a closer look

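Ndufb8 had diet ratios of opposite sign in sham and denervated muscle. On genistein it read 3619 units against 3209 on the control diet in sham muscle (log2 ratio 0.17) and 899 against 1123 units in denervated muscle (-0.32). The denervated ratio minus the sham ratio was -0.49, the lowest among the 41 members measured. The difference was not tested, since each group is 1 pool, and Ndufb8 has 1 probe set.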

How the results depend on the processing

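No member at least 2-fold lower after denervation changed direction under the 3 other scalings. Scaling to the hybridisation controls moved the subunit medians for denervation to -0.72 on the control diet and -0.70 on genistein, those of the assembly factors to -0.30 and -0.12, and the subunits at least 2-fold lower to 6 and 2. It also put 1 subunit 2-fold higher on genistein in denervated muscle. Median log2 ratios of these controls themselves, denervated over sham, were -0.40 and -0.52. Quantile normalization left 11 subunits 2-fold lower on the control diet and 16 on genistein, with medians of -0.75 and -0.86, 0 subunits 2-fold higher on genistein in sham muscle, where Ndufs4 was at 0.998, and 1 in denervated muscle, where it was at 1.19. Without Ndufs4, a choice made after seeing the data, 0 subunits were 2-fold higher in sham muscle. Another 177 medians and counts under these settings stayed within the scatter between probe sets or within 1.5 times the count. Of the ratios of single named genes, 57 moved by more than that scatter and 345 did not. No paired analysis was possible because each group is 1 pool on 1 array.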

Other observations

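Subunits with annotated copies under a like name had milder denervation ratios. RefSeq lists at least 1 pseudogene or copy named after the gene for 17 of the 35 subunits measured in both diets. Their median ratios were -0.78 on the control diet and -0.91 on genistein, against -1.21 and -1.40 for the 18 subunits without one. Copies were found by symbol only, so those under other names were missed, and Ndufa4l2, a gene of its own, counts as a copy of Ndufa4. Ndufb4, with 11 copies the most of any member, had the mildest ratios of a subunit after Ndufs4, while Ndufa5, with 4 copies, was among the lowest. Whether the probes of these genes also read the copies was not tested, and the grouping was made after the ratios were seen.

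The 2 probe sets that the annotation shares between an Nduf gene and a copy were not counted above. That of Ndufa10 and Ndufa10l1 read 6784 units in control sham, 2489 in control denervated, 6200 in genistein sham and 2372 in genistein denervated muscle (-1.45 and -1.39). That of Ndufs5 and its pseudogene read 11105, 5818, 11424 and 5762 units (-0.93 and -0.99).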
